A study of Homo sapiens with 88 samples.

Results

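NCI-H510 is an established human small cell lung cancer line, and its response to the treatment that the array titles call 552A was read from 12 of the 88 arrays of the series, taken by title. 6 of them came from cells given 552A and 6 from cells given DMSO, the vehicle, with 2 arrays for each treatment at day 2, day 4 and day 7. All cells grew in RPMI with 10% FBS, and the labels name no transgene or knockout. The protocol shared by all samples names DMSO and GSK2879552 at 1 µM, which blocks the histone demethylase LSD1 (gene KDM1A), but no label equates 552A with that compound, so the treated arm is called 552A. The study asked how LSD1 inhibition changes gene expression in lines whose growth is sensitive or resistant to it, and the labels used here do not say which kind NCI-H510 is. The other time course lines were used for comparison, for the estimate of the spread and for the choice of probe sets. They were SHP-77 (14 arrays), NCI-H526 (13), COLO668 (12), NCI-H146 (12) and NCI-H446 (13), each with 552A and DMSO at the same 3 days. The remaining 12 arrays, of H1417, H2171 and H69 at day 4, entered only the estimate of the spread and the choice of probe sets. Total RNA was hybridised to Affymetrix HG-U133 Plus 2.0 arrays, and every value below is a log2 signal of 1 probe set or a difference between such signals, in which 1 unit is a doubling.

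LSD1 removes methyl groups from lysine 4 of histone H3 and works in complexes with the corepressor RCOR1 and the HMG-box protein HMG20B, which the zinc finger repressors GFI1, GFI1B and INSM1 bring to DNA. Small cell lung cancer is a neuroendocrine tumour: most of its lines make chromogranins, secretogranins and peptide hormones, and store them in dense core vesicles that are released by the same SNARE machinery as synaptic vesicles. LSD1 inhibition is known from other work to raise genes that these repressors hold down, some of them genes of mesenchymal or other non-neuroendocrine cells.

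All 11 measured neuroendocrine markers were above the dim range (a mean log2 signal under 6.09), among them the chromogranin CHGA at 12.22 ± 0.29 in 552A cells and 12.99 ± 0.10 in DMSO cells and the adhesion molecule NCAM1 at 11.12 ± 0.02 in 552A cells and 11.11 ± 0.14 in DMSO cells. Of 7 immune markers 2 were dim, PTPRC, the common leukocyte antigen, at 3.90 ± 0.07 in 552A cells and at 3.97 ± 0.12 in DMSO cells (SD, n = 6 each) and LYZ at 5.93 in both arms. The other 5 (CD79A, CD3E, CD3D, CD14 and TYROBP) lay above the dim limit, at 6.32 to 8.49 in 552A cells and 6.46 to 8.42 in DMSO cells. Of 8 immune cell genes tested limma called 0, with 0 at an unadjusted p below 0.05. Of 7 fibroblast markers 3 were dim in both arms, among them LUM, which read 3.77 ± 0.12 in 552A cells and 3.64 ± 0.13 in DMSO cells. COL1A1, COL1A2, DCN and PDGFRB lay above the dim limit, at 7.21 to 8.61 in 552A cells and 7.31 to 8.62 in DMSO cells. Of 5 endothelial markers 2 were dim, CDH5 and KDR. PECAM1, VWF and TEK lay above the limit, at 6.85 to 8.04 in 552A cells and 6.85 to 8.12 in DMSO cells. Of 5 tuft cell markers 1 was dim: POU2F3, which defines the tuft cell type of this cancer, at 4.69 ± 0.09 in 552A cells and 4.54 ± 0.12 in DMSO cells. The other 4 tuft markers lay above the dim limit, TRPM5 just so at 6.10 in 552A cells and 6.13 in DMSO cells, and GFI1B, AVIL and ASCL2 at 7.14 to 8.27 in 552A cells and up to 8.55 in DMSO cells. NEUROD1 was not analysed here. KDM1A itself was bright in both arms and not called, at 11.40 ± 0.06 in 552A cells and 11.44 ± 0.04 in DMSO cells (difference -0.05, limma adjusted p = 0.68). The median signal was 7.36 to 7.46 on all 88 arrays. Of 5 arrays with a gap above 0.8 between the 3′ and 5′ probe sets of ACTB, a sign of RNA quality, and 1 array with an interquartile range apart from the rest, 0 were of NCI-H510, whose ACTB gaps were -0.04 to 0.31.

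Of 15352 genes tested, 1320 rose and 988 fell in the mean over the 3 days (limma over all 88 arrays, Benjamini-Hochberg adjusted p below 0.05). That is 15.0% of the genes in either direction, 8.60% up and 6.44% down. The 2308 calls in all became 3502 without the 6 arrays of other lines just named, 3811 in a fit of the 12 NCI-H510 arrays alone and 4316 with array weights. At least a doubling was reached by 85 of the genes that rose, and at least a halving by 38 of those that fell. All 6 arrays of 552A cells lay above or below all 6 arrays of DMSO cells for 1578 genes (10.3%). The median difference over all genes tested was -0.01. The labels do not tell whether both arrays of a group stem from separate cultures: the p-values then measure the spread between arrays, which may be technical, and the small number of arrays limits the precision. In a bulk culture, fewer cells of a kind and less RNA per cell cannot be told apart.

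Most genes called at day 2 were also called at day 7. At day 2, 325 genes rose (2.12% of genes tested) and 214 fell (1.39%), 3.51% in all. At day 4, 478 rose (3.11%) and 244 fell (1.59%), 4.70% in all. At day 7, 616 rose (4.01%) and 352 fell (2.29%), 6.31% in all. Of the genes that had risen at day 2, 266 of 325 had also risen at day 7, and of those that had fallen, 139 of 214 had also fallen at day 7. On all 3 days 245 genes had risen and 113 had fallen. The sign at day 7 was opposite to that at day 2 for 4 of the early rises and 8 of the early falls. The responses at day 2 and day 7, which share no array, correlated at r = 0.75 over the genes tested, which are not independent replicates. Among genes called for the mean, the median response of the risen genes was 0.30 at day 2, 0.37 at day 4 and 0.40 at day 7, and that of the fallen genes was -0.28, -0.29 and -0.32. The response was larger at day 7 than at day 2 for 915 of the 1320 risen genes and for 615 of the 988 fallen ones. Leaving out 1 array moved the day 2 count of called genes to as few as 285 (without replicate 1 of 552A at day 2), the day 4 count to 404 (without replicate 2 of DMSO at day 4) and the day 7 count to 542 (without replicate 2 of DMSO at day 7).

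**Figure D1:**
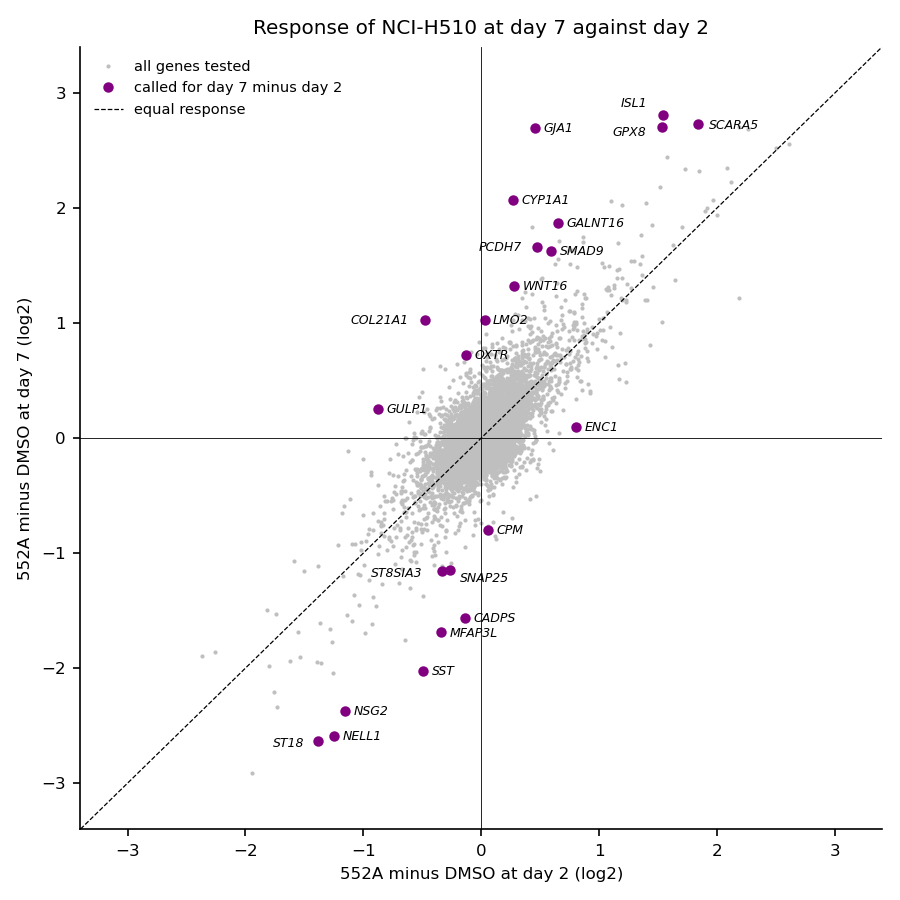
Response of each gene tested (552A minus DMSO, log2) at day 7 against day 2, with the 23 genes called for the difference between these days named. Most genes far from 0 lie near the dashed line of equal response, while GJA1, CYP1A1 and ISL1 lie above it and SST, ST18 and NSG2 below it.

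The largest early rises were held through the week. VIM, which encodes the intermediate filament vimentin of mesenchymal cells, read 12.11 and 11.88 at day 2, 12.28 and 12.34 at day 4 and 12.44 and 12.22 at day 7 in 552A cells, against 9.58 and 9.41, 9.92 and 9.65, and 9.83 and 9.79 in DMSO cells on the same days. Every 552A array lay over 2 units above every DMSO array of its day. The mean response was 2.51 ± 0.10 (SE; 5.71-fold, adjusted p = 8.55e-28), with 2.50 at day 2 and 2.52 at day 7. Its other, dim probe set gave 0.30. LRRN4 encodes a membrane protein with leucine-rich repeats. It read 9.62 and 9.68, 9.55 and 9.38, and 9.66 and 9.82 in 552A cells at days 2, 4 and 7, against 6.95 and 7.12, 6.98 and 7.16, and 7.11 and 7.26 in DMSO cells (mean response 2.52 ± 0.12, adjusted p = 2.28e-24). ADGRG6, an adhesion receptor coupled to G proteins that Schwann cells need to form myelin, read 8.67 and 8.77, 9.02 and 8.89, and 9.12 and 9.02 in 552A cells, against 6.31 and 6.62, 6.20 and 6.50, and 6.59 and 6.18 in DMSO cells (2.51 ± 0.10, adjusted p = 1.64e-27). The arms of both genes were far apart on each day. The other, dim probe sets of ADGRG6 gave 0.30 and 0.05.

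Other early rises came from several kinds of gene. TNFRSF10B, the death receptor DR5 that binds TRAIL, read 9.01 and 8.82 at day 2, 9.31 and 9.06 at day 4 and 9.46 and 9.60 at day 7 in 552A cells, against 6.87 and 6.80, 6.97 and 7.35, and 7.13 and 7.23 in DMSO cells. Its arms did not overlap, and its mean response was 2.15 ± 0.12 (4.45-fold, adjusted p = 1.42e-21). The 2 other bright probe sets of TNFRSF10B gave a smaller response of 0.74 each. ZEB1, a repressor that binds E-boxes and drives epithelial cells towards a mesenchymal state, read 7.22 and 7.12, 7.45 and 7.30, and 7.21 and 7.44 in 552A cells, against 5.48 and 5.42, 4.99 and 5.10, and 5.03 and 4.93 in DMSO cells. It was dim in DMSO cells and above that range in 552A cells (response 2.13 ± 0.08, adjusted p = 1.64e-27). Its 3 other probe sets gave 1.22, 0.25 and 0.00. LBH, a transcription cofactor first known from limb bud and heart, averaged 10.34 ± 0.22 in 552A cells and 7.94 ± 0.06 in DMSO cells (2.40 ± 0.12). SCNN1G, the gamma subunit of the epithelial sodium channel, averaged 9.27 ± 0.54 in 552A cells and 7.04 ± 0.47 in DMSO cells (2.23 ± 0.11), though its other, dim probe set gave -0.05. MALL, a raft-associated membrane protein, averaged 11.15 ± 0.27 in 552A cells and 9.08 ± 0.17 in DMSO cells, and NOS1, the neuronal nitric oxide synthase, averaged 11.46 ± 0.15 in 552A cells and 9.39 ± 0.18 in DMSO cells. Both responses were 2.07, and the 6 probe sets of NOS1 ranged from 0.28 to 2.23.

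EFEMP1, an extracellular matrix protein of the fibulin family, had one of the 6 largest day 2 rises but became smaller. It read 11.73 and 11.38 at day 2, 11.19 and 10.89 at day 4 and 10.44 and 10.30 at day 7 in 552A cells, against 9.54 and 9.21, 9.78 and 9.48, and 9.40 and 8.90 in DMSO cells. The response was 2.18 at day 2 and 1.22 at day 7, and this difference of -0.97 ± 0.28 did not pass the test (adjusted p = 0.27).

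Among the early falls were genes of excitable and secretory cells. SCN2A, an alpha subunit of voltage-gated sodium channels, read 6.11 and 6.67 at day 2, 6.34 and 6.74 at day 4 and 6.21 and 6.53 at day 7 in 552A cells, against 8.70 and 8.83, 8.43 and 8.86, and 8.30 and 8.23 in DMSO cells. The arms were over 1.5 units apart on each day, its other probe set gave -0.93, and the mean response was -2.13 ± 0.15 (4.36-fold lower, adjusted p = 7.00e-17). SLITRK6, a transmembrane protein of neurons and the inner ear, averaged 7.10 ± 0.20 in 552A cells and 9.02 ± 0.17 in DMSO cells (-1.92 ± 0.10, adjusted p = 9.82e-22). SCGN, the calcium sensor secretagogin of neuroendocrine cells, averaged 7.40 ± 0.26 in 552A cells and 9.47 ± 0.12 in DMSO cells (-2.07 ± 0.11). ALDH1A1, which makes retinoic acid from retinaldehyde, averaged 7.48 ± 0.34 in 552A cells and 9.49 ± 0.35 in DMSO cells (-2.01 ± 0.10). DACT1, an inhibitor of Wnt signalling that binds Dishevelled, averaged 6.15 ± 0.16 in 552A cells and 7.72 ± 0.19 in DMSO cells (-1.57 ± 0.10).

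The largest fall of all was that of ADCYAP1, the gene of the neuropeptide PACAP. It read 7.81 and 7.80 at day 2, 7.16 and 7.22 at day 4 and 6.80 and 6.51 at day 7 in 552A cells, against 9.77 and 9.72, 9.71 and 9.70, and 9.56 and 9.57 in DMSO cells. The DMSO arrays stayed close together, and every later pair of 552A arrays lay below the pair before it. The response was -1.94 at day 2, -2.51 at day 4 and -2.91 at day 7, and the difference of -0.97 ± 0.30 between days 7 and 2 did not pass the test (adjusted p = 0.41). Further large falls were those of KCTD12, an auxiliary subunit of GABA-B receptors (-2.14 ± 0.14), OR51E1, an olfactory receptor that is also made outside the nose (-1.82 ± 0.15), the long non-coding RNA RMST (-1.74 ± 0.13) and the protocadherin PCDH17 (-1.63 ± 0.09). The other probe sets of RMST gave -0.23 and -0.18.

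**Figure D2:**
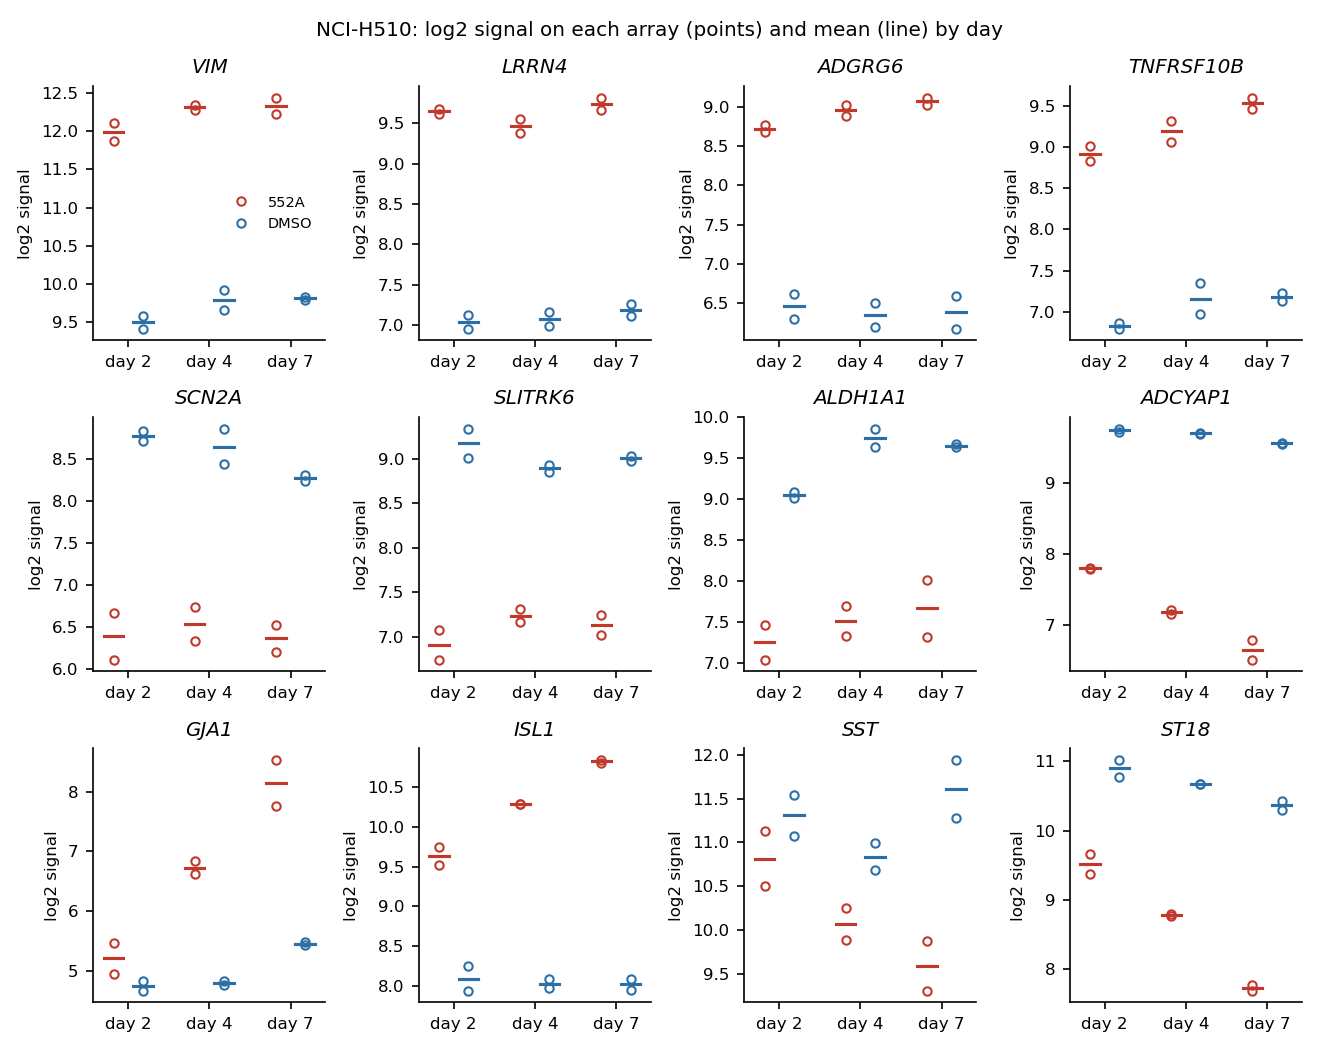
Log2 signal of 12 genes on each NCI-H510 array by day, 552A to the left of DMSO, with points for arrays and lines for the mean of 2 arrays. In the top and middle rows the arms are apart from day 2 onwards, and in the bottom row GJA1 and SST part mainly after day 2 while ISL1 and ST18 keep moving apart.

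Few genes were called for a change of response with time. The difference between the responses at day 7 and day 2 passed the test for 23 genes (0.150% of genes tested). Of these, 13 were higher (0.0847%) and 10 lower (0.0651%) at day 7. An unadjusted limma p below 0.05 was reached by 462 genes, which is less than a share of 0.05 of the genes tested. At day 4 the response of all 23 lay between those of the other days. For 20 of the 23 the 552A arrays moved more between day 2 and day 7 than the DMSO arrays did, and for 3 (OXTR, ENC1 and MFAP3L) the DMSO arrays moved more. 7 genes rose late, with a call at day 7 and none at day 2: GJA1, CYP1A1, COL21A1, PCDH7, WNT16, LMO2 and OXTR. 6 fell late: SST, CADPS, MFAP3L, SNAP25, ST8SIA3 and CPM. 5 had risen at day 2 and rose further (ISL1, GALNT16, GPX8, SMAD9 and SCARA5), and 3 had fallen and fell further (NELL1, ST18 and NSG2). ENC1 rose at day 2 by 0.81 and had a response of 0.09 at day 7, and GULP1 fell at day 2 by 0.87 and had a response of 0.26 at day 7; those outside the 12 largest were named after their values were seen. The count of 23 was 7 without replicate 2 of 552A at day 7 and 36 without replicate 1. It was 39 without the 6 arrays in doubt of other lines and 93 with array weights.

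GJA1, which encodes the gap junction protein connexin 43, had the largest late rise. It read 4.95 and 5.46 at day 2, 6.61 and 6.84 at day 4 and 8.54 and 7.76 at day 7 in 552A cells, against 4.66 and 4.83, 4.83 and 4.76, and 5.43 and 5.47 in DMSO cells. It was dim in all DMSO arrays and in 552A cells at day 2, and the arms were over 1.5 units apart from day 4. The response was 0.46 at day 2, 1.93 at day 4 and 2.69 at day 7, a difference of 2.24 ± 0.24 between days 7 and 2 (adjusted p = 8.34e-09). ISL1, a LIM homeodomain transcription factor of motor neurons and endocrine islets, read 9.52 and 9.75, 10.29 and 10.29, and 10.85 and 10.81 in 552A cells, against 7.94 and 8.25, 7.97 and 8.08, and 8.09 and 7.95 in DMSO cells. The 552A level was higher on each later day while the DMSO level stayed near 8 (difference between days 1.27 ± 0.22, adjusted p = 0.0015).

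CYP1A1, a monooxygenase induced through the aryl hydrocarbon receptor, read 9.94 and 9.72 at day 2, 10.43 and 10.44 at day 4 and 10.57 and 11.52 at day 7 in 552A cells, against 9.88 and 9.24, 9.52 and 9.48, and 9.12 and 8.83 in DMSO cells. Its arms overlapped at day 2 and were 2.07 apart at day 7, and the DMSO level was itself lower at day 7. The difference between days was 1.80 ± 0.33 (adjusted p = 0.0030), and it lost its call without replicate 1 of DMSO at day 2 or replicate 2 of 552A at day 7. COL21A1, a collagen chain, was called at day 7 (1.02) but not for the mean over days (0.34, adjusted p = 0.084), with a day 2 response of -0.48.

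On the falling side, ST18, a zinc finger transcription factor of the MYT1 family, read 9.38 and 9.66 at day 2, 8.81 and 8.78 at day 4 and 7.69 and 7.77 at day 7 in 552A cells, against 10.78 and 11.03, 10.68 and 10.67, and 10.30 and 10.43 in DMSO cells. The arms were apart from day 2 and the gap grew with each day (difference between days -1.25 ± 0.17, adjusted p = 9.63e-06). The 3 other, dimmer probe sets of ST18 gave -0.10 to 0.02. SST, the gene of the hormone somatostatin, read 10.50 and 11.13, 9.89 and 10.25, and 9.88 and 9.30 in 552A cells, against 11.08 and 11.54, 10.68 and 10.99, and 11.28 and 11.95 in DMSO cells. Its arms overlapped at day 2 and were clearly apart at day 7 (-1.53 ± 0.29 between days, adjusted p = 0.0041). CADPS, which primes dense core vesicles for release, read 10.03 and 9.90, 9.53 and 9.64, and 8.68 and 8.75 in 552A cells, against 10.22 and 9.99, 10.35 and 10.33, and 10.32 and 10.23 in DMSO cells (-1.43 ± 0.29 between days, adjusted p = 0.012). NSG2, a protein of neuronal endosomes, had responses of -1.15, -1.62 and -2.37 at days 2, 4 and 7 (-1.22 ± 0.18 between days, adjusted p = 3.92e-05).

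Of the 12 late or growing genes with the largest differences between days, GJA1, ISL1, MFAP3L, NSG2 and ST18 kept the call in all 12 fits that each left out 1 NCI-H510 array. CYP1A1 kept it in 10, SST and CADPS in 8, GALNT16 in 7, COL21A1 in 6, and PCDH7 and NELL1 in 5. In a fit of the 12 NCI-H510 arrays alone, CYP1A1 (adjusted p = 0.16), COL21A1 (0.30), GALNT16 (0.057), PCDH7 (0.12) and SST (0.30) were not called. All of these kept their direction. Of the 12 genes with the largest day 2 responses, all 12 kept the call in the 12 fits that left out 1 array.

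The promoters of 4 of these genes are shown because they differ in when the gene responded: ZEB1 rose early, GJA1 late, and SST fell late, while CHGA, the chromogranin A gene, fell on all days (responses -0.57, -0.75 and -1.01 at days 2, 4 and 7). Each window holds the 250 bases before the start of the gene, from RefSeq on GRCh38.p14, and is written 5′ to 3′ on the strand of the gene. ZEB1 lies on the plus strand at chr10:31318167-31318416, GJA1 on the plus strand at chr6:121435396-121435645, SST on the minus strand at chr3:187670395-187670644 and CHGA on the plus strand at chr14:92922900-92923149. Capitals mark an E-box CAGGTG in ZEB1, an AP-1 motif TGANTCA in GJA1, and the cyclic AMP response element TGACGTCA in SST and CHGA.
ZEB1: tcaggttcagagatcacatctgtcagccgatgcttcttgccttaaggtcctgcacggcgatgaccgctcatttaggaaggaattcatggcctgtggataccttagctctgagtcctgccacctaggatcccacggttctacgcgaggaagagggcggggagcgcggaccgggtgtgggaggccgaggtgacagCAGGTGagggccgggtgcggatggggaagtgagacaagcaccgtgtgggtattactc
GJA1: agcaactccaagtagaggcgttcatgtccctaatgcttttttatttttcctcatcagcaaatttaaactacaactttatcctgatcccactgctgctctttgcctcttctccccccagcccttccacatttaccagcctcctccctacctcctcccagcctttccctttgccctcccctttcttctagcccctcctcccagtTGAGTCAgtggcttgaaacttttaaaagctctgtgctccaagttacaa
SST: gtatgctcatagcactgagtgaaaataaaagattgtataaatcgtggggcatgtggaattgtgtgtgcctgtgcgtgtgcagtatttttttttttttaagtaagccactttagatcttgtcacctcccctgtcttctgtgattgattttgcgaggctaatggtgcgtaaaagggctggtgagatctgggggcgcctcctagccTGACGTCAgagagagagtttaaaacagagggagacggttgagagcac
CHGA: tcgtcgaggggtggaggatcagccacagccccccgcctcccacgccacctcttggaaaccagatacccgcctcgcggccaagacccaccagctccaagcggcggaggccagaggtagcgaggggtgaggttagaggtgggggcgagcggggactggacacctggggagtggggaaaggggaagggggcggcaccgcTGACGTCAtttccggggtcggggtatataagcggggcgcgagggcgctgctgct
These motifs were picked with the genes' responses known, and a match describes the letters of the window, not binding. The marked motif begins 57 bases before the start in ZEB1, 48 in GJA1, 47 in SST and 54 in CHGA. On either strand, CAGGTG is in 19.0% of the windows of genes that rose at least 2-fold (12 of 63 with a window), in 16.1% of those that fell at least 2-fold (5 of 31) and in 16.5% of all 12236 windows of genes tested. TGANTCA is in 11.1% (7), 22.6% (7) and 4.2% of these windows, and TGACGTCA in 0.0% (0), 6.5% (2) and 2.7%. CHGA holds the E-box as well, and none of the 3 motifs contains another.

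Of 41 neuroendocrine markers tested, 20 fell (48.8%, against 6.44% of all genes) and 1 rose (RTN1, 0.21). The list was chosen with earlier results of these data known, so its direction is not independent evidence. Its median response was -0.17 at day 2, -0.23 at day 4 and -0.33 at day 7, with the median of all genes at -0.002, -0.007 and -0.008. The response at day 7 was below that at day 2 in 16 of the 20 genes that fell. SYT4, a synaptotagmin of dense core vesicles, averaged 9.33 ± 0.29 in 552A cells and 10.91 ± 0.08 in DMSO cells (-1.58 ± 0.07, adjusted p = 1.2e-25). GRP, gastrin-releasing peptide, averaged 12.32 ± 0.24 in 552A cells and 13.61 ± 0.07 in DMSO cells (-1.29 ± 0.19). SCG2, secretogranin II, averaged 9.93 ± 0.43 in 552A cells and 10.91 ± 0.15 in DMSO cells (-0.99 ± 0.08), and CALCA, the calcitonin and CGRP gene, averaged 10.67 ± 0.39 in 552A cells and 11.60 ± 0.18 in DMSO cells (-0.93 ± 0.17). INSM1, a repressor that marks the neuroendocrine state, gave 13.30 ± 0.15 in 552A cells and 13.41 ± 0.07 in DMSO cells and was not called (-0.11, adjusted p = 0.28).

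Among peptides, release machinery and ion channels the falls outnumbered the rises too. Of 37 neuropeptide, hormone and granin genes 12 fell and 2 rose (NMU and NTS). Of 52 synaptic vesicle genes 16 fell, with RAB3B, a GTPase of secretory vesicles, at 8.99 ± 0.25 in 552A cells and 10.11 ± 0.19 in DMSO cells (-1.12 ± 0.09). The 1 that rose was SLC18A3, the vesicular acetylcholine transporter, at 7.53 ± 0.48 in 552A cells and 6.40 ± 0.19 in DMSO cells (1.13 ± 0.10). Of 79 ion channel genes 25 fell and 8 rose. SCN3A, another sodium channel subunit, fell by 1.30 ± 0.10, while its other probe set gave -0.16. The largest rise was that of CHRNA9, a nicotinic acetylcholine receptor subunit, at 10.24 ± 0.39 in 552A cells and 8.87 ± 0.43 in DMSO cells (1.37 ± 0.11). The shares that fell were 32.4%, 30.8% and 31.6%, against 6.44% of all genes. The shares that rose were 5.4%, 1.9% and 10.1%, against 8.60% of all genes, so that the rises among ion channels were near the share of all genes.

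Of 49 transcription factors of neural and neuroendocrine cells 10 fell, ST18 first among them (20.4%, against 6.44% of all genes), and 3 rose (ISL1, NEUROG1 and SOX4; 6.1%, against 8.60%). NEUROG1, a proneural basic helix-loop-helix factor, averaged 7.44 ± 0.40 in 552A cells and 6.77 ± 0.13 in DMSO cells (0.67 ± 0.09), and POU4F2, a POU factor of sensory neurons, averaged 7.80 ± 0.47 in 552A cells and 8.48 ± 0.17 in DMSO cells (-0.68 ± 0.10). The only probe set of NEUROG1 may cross-hybridise.

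**Figure D3:**
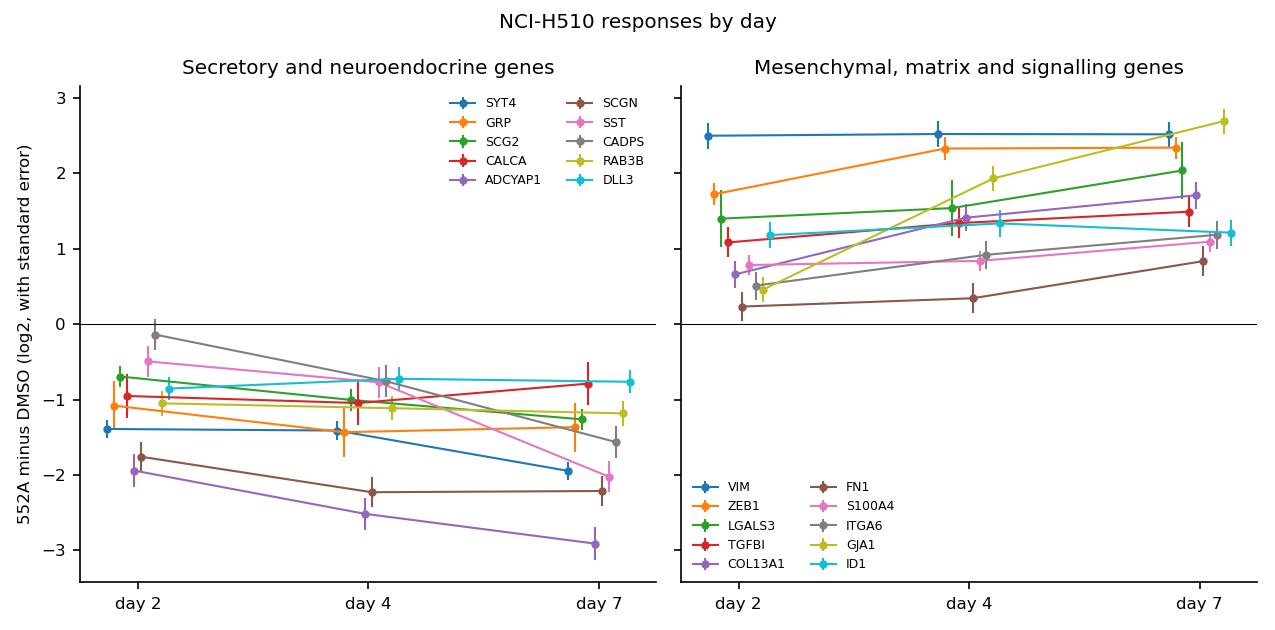
Responses (552A minus DMSO, log2, with the standard error of the fit) of 10 secretory and neuroendocrine genes and 10 mesenchymal, matrix and signalling genes at days 2, 4 and 7. VIM and ID1 are level over the days, GJA1 climbs from 0.46 to 2.69, SST is at -0.49 at day 2 and -2.02 at day 7, and CADPS at -0.14 and -1.56 on these days.

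Of 45 mesenchymal genes tested, 19 rose (42.2%, against 8.60% of all genes) and 1 fell (COL1A2, a fibrillar collagen chain, -0.53 ± 0.11), and the response at day 7 was above that at day 2 in 18 of the 19. The median response of the list was 0.14 at day 2 and 0.30 at day 7. This list too was chosen with earlier results known. Beside VIM and ZEB1, LGALS3, galectin-3, averaged 9.64 ± 0.40 in 552A cells and 7.98 ± 0.30 in DMSO cells (1.66 ± 0.22), and its other probe set gave -0.08. TGFBI, a matrix protein induced by TGF-beta, averaged 8.79 ± 0.43 in 552A cells and 7.49 ± 0.26 in DMSO cells (1.31 ± 0.11). Of 17 markers of fibroblasts and endothelium tested, 1 rose (PDPN, 0.72 ± 0.08; 5.9%) and 2 fell (COL1A2 and CLDN5; 11.8%, against 6.44% of all genes).

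Matrix and adhesion genes rose in part. Of 57 collagens, laminins and integrins, 15 rose and 4 fell (26.3% and 7.0%, against 8.60% and 6.44% of all genes), so that the falls were near the share of all genes. COL13A1, a transmembrane collagen that was dim in DMSO cells, averaged 6.15 ± 0.57 in 552A cells and 4.89 ± 0.14 in DMSO cells (1.26 ± 0.10), while its 3 probe sets ranged from -0.03 to 1.26. ITGA6, the integrin alpha 6 chain of laminin receptors, averaged 10.15 ± 0.45 in 552A cells and 9.28 ± 0.14 in DMSO cells (0.87 ± 0.11), and FN1, fibronectin, averaged 8.05 ± 0.45 in 552A cells and 7.58 ± 0.20 in DMSO cells (0.47 ± 0.11). Of 26 annexins and S100 proteins 8 rose and 2 fell (30.8% and 7.7%), led by S100A4 at 9.30 ± 0.27 in 552A cells and 8.40 ± 0.22 in DMSO cells. Of 58 cytoskeleton genes 13 rose and 3 fell (22.4% and 5.2%), with SEPTIN10 at 11.30 ± 0.13 in 552A cells and 10.30 ± 0.19 in DMSO cells (1.00 ± 0.07).

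Of 33 epithelial genes tested, 7 rose and 4 fell (21.2% and 12.1%, against 8.60% and 6.44% of all genes). KRT19, a simple epithelial keratin, averaged 11.45 ± 0.05 in 552A cells and 10.25 ± 0.11 in DMSO cells (1.20 ± 0.11), and OVOL2 and OVOL1, zinc finger factors that hold the epithelial state, rose by 1.05 ± 0.09 and 0.85 ± 0.08. PROM1, a membrane glycoprotein used as a stem cell marker, averaged 10.36 ± 0.14 in 552A cells and 11.12 ± 0.19 in DMSO cells (-0.76 ± 0.11). ZEB1 and both OVOL genes, known as opposing regulators, were higher in 552A cells at day 2 and day 7.

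In the TGF-beta and BMP list of 61 genes, 14 rose and 5 fell (23.0% and 8.2%, against 8.60% and 6.44% of all genes). The inhibitors of DNA binding ID1 and ID4, which are BMP targets, averaged 10.70 ± 0.25 and 11.52 ± 0.23 in 552A cells and 9.46 ± 0.24 and 10.30 ± 0.24 in DMSO cells (1.25 ± 0.10 and 1.23 ± 0.11), with the full response at day 2 (1.18 and 1.23). FST, follistatin, which binds and blocks activin, averaged 11.05 ± 0.24 in 552A cells and 12.41 ± 0.11 in DMSO cells (-1.37 ± 0.06, adjusted p = 3.3e-25).

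In the Notch pathway, 10 of 53 genes rose and 8 fell (18.9% and 15.1%, against 8.60% and 6.44% of all genes). Among the ligands, DLL3, an inhibitory ligand made by neuroendocrine tumours, averaged 9.74 ± 0.04 in 552A cells and 10.52 ± 0.08 in DMSO cells (-0.78 ± 0.09), and DLK1, a non-canonical ligand, averaged 12.16 ± 0.57 in 552A cells and 11.25 ± 0.38 in DMSO cells (0.91 ± 0.19). The receptor NOTCH2 averaged 9.78 ± 0.14 in 552A cells and 9.26 ± 0.10 in DMSO cells (0.51 ± 0.11). The target HES1, a repressor of proneural genes, averaged 10.31 ± 0.26 in 552A cells and 9.36 ± 0.28 in DMSO cells (0.96 ± 0.12). The second probe set of HES1 gave 0.83 and its dimmest one 0.06, and the other, dimmer set of DLK1 gave 0.00. DLL3 had 3 further sets that may cross-hybridise, the brightest of which gave -0.56 and the others -0.17 and -0.05.

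In the YAP and TEAD list, 10 of 41 rose and 2 fell (24.4% and 4.9%, against 8.60% and 6.44% of all genes). YAP1, the coactivator of the pathway, read 7.16 ± 0.49 in 552A cells and 5.80 ± 0.13, which is dim, in DMSO cells (1.36 ± 0.12, adjusted p = 6.1e-14), and was 0.86 higher at day 2 and 1.75 higher at day 7. PTPN14, a phosphatase that restrains YAP1, rose by 0.84 ± 0.12 in the mean, with responses of 0.92, 1.17 and 0.41 on the 3 days. At day 7 it was not called (limma adjusted p = 0.34). Its DMSO arrays of that day were far apart, at 7.16 and 8.20, against 8.05 and 8.12 in 552A cells. Among receptor tyrosine kinases and their ligands 13 of 69 rose and 7 fell (18.8% and 10.1%). RET, the receptor of GDNF family ligands, averaged 8.61 ± 0.19 in 552A cells and 10.18 ± 0.10 in DMSO cells (-1.57 ± 0.12). Its further probe sets, which may cross-hybridise, gave -0.49 and -0.58. EGF averaged 7.58 ± 0.33 in 552A cells and 6.31 ± 0.23 in DMSO cells (1.27 ± 0.11).

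Of 69 axon guidance genes tested, 14 rose and 8 fell (20.3% and 11.6%, against 8.60% and 6.44% of all genes): EPHA4, an ephrin receptor, and EFNB2, an ephrin, rose by 0.93 ± 0.07 and 0.89 ± 0.10, while SLIT2, a repellent, and its receptor ROBO2 fell by 1.15 ± 0.10 and 0.84 ± 0.14.

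In the list of death receptors, the BCL2 family and p53 targets, 13 of 55 rose (23.6%, against 8.60% of all genes). In the same list 4 fell (7.3%, near the 6.44% of all genes). After TNFRSF10B, PLK2, a p53-induced kinase, rose by 0.85 ± 0.12, TNFRSF10D, a decoy TRAIL receptor, by 0.56 ± 0.12 and APAF1, the core of the apoptosome, by 0.46 ± 0.08. CDKN1A, the p53 target p21, was at 11.33 ± 0.13 in 552A cells and 11.11 ± 0.15 in DMSO cells and was not called (0.22, adjusted p = 0.089). Of 78 genes of S phase and mitosis 0 rose and 4 fell in the limma test (5.1% against 6.44% of all genes). At an unadjusted limma p below 0.05, 1 was higher and 12 were lower, beside 2018 and 1704 of all 15352 genes tested. The largest fall was that of GINS2, a replication factor, by 0.27 ± 0.05. In the list of cyclins and CDK inhibitors, 3 of 37 rose and 1 fell (8.1% and 2.7%), no more than the 8.60% and 6.44% of all genes. The members with the largest responses were CDK6 and CCNA1. CDK6, a G1 kinase, averaged 8.42 ± 0.16 in 552A cells and 9.41 ± 0.15 in DMSO cells (-0.99 ± 0.09), and CCNA1, a cyclin known from germ cells, averaged 10.12 ± 0.56 in 552A cells and 9.04 ± 0.33 in DMSO cells (1.08 ± 0.09).

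MYC averaged 10.32 ± 0.26 in 552A cells and 9.34 ± 0.40 in DMSO cells (0.97 ± 0.12, adjusted p = 3.2e-09). MYCL, its relative first found in lung cancer, was bright and not called, at 14.32 ± 0.03 in 552A cells and 14.26 ± 0.05 in DMSO cells (0.05, adjusted p = 0.84). Of 43 genes of the MYC family and ribosome biogenesis, 1 rose (MYC) and 1 fell (WDR12, -0.17), 2.3% each way and below the 8.60% and 6.44% of all genes. Interferon-stimulated genes rose in 8 of 43 cases and fell in 1 (18.6% and 2.3%), with IFITM2 and IFITM3, near-identical membrane proteins whose probe sets may share signal, both higher by 1.25 ± 0.09 and 1.22 ± 0.09. The genes of class I antigen presentation gave 2 rises and 3 falls of 29 (6.9% and 10.3%), all under 0.3 in size in the mean over days. MICB, a member not called for the mean, was higher by 0.70 at day 7 (limma adjusted p = 0.0050). Of 37 immediate early genes 6 rose and 1 fell (16.2% and 2.7%), with ZFP36L1, an RNA-binding protein, higher by 1.11 ± 0.13.

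**Figure D4:**
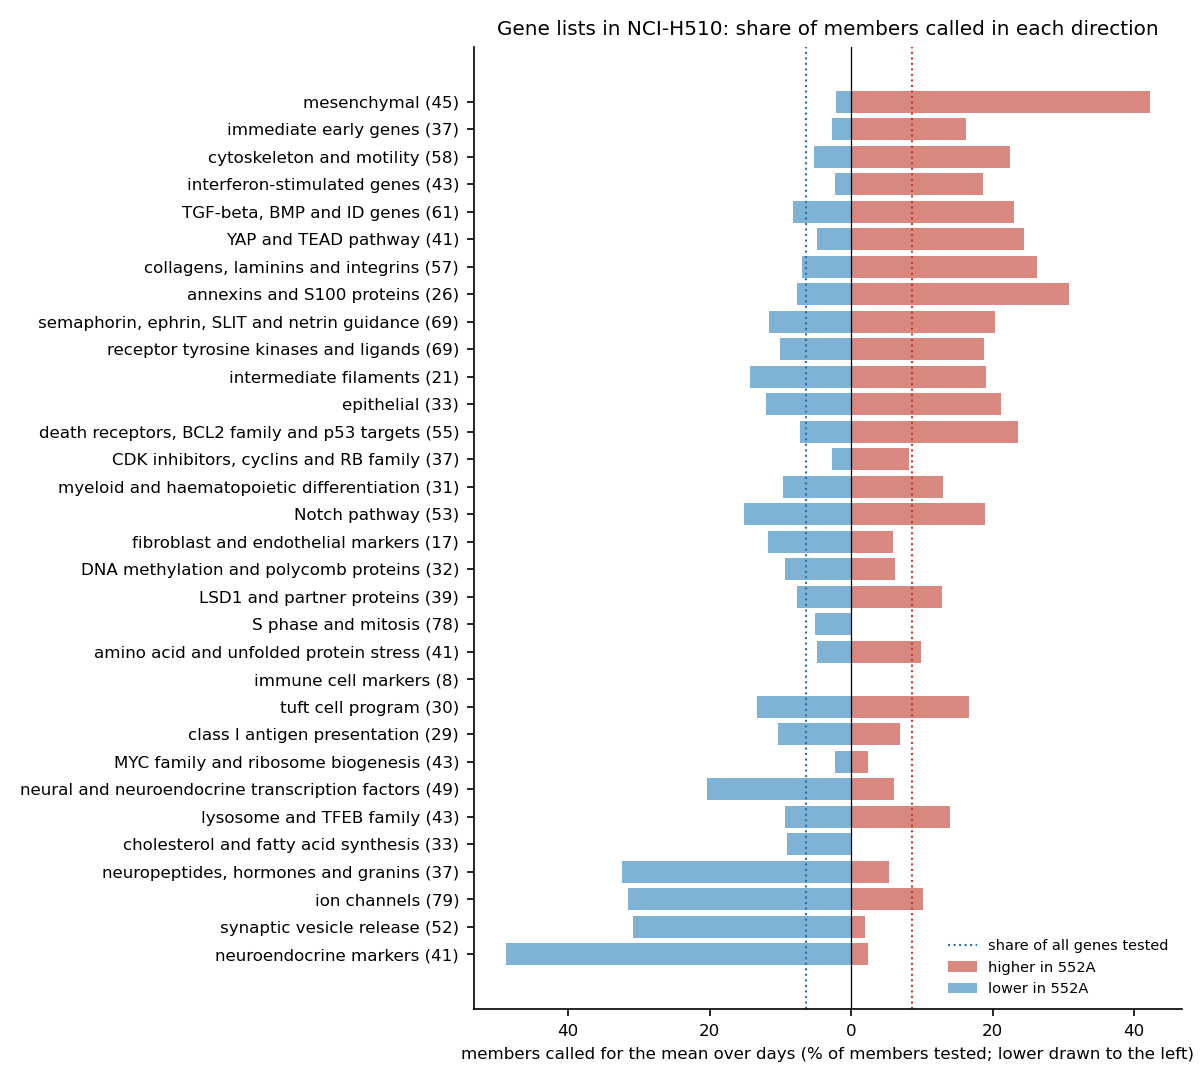
Share of the tested members of each gene list that rose (right) or fell (left) in 552A cells in the mean over days, with the number tested in brackets and dotted lines at the shares of all genes tested. Mesenchymal genes reach 42.2% to the right and neuroendocrine markers 48.8% to the left.

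In the list of LSD1 and partner proteins, 5 of 39 rose (OVOL2, ZNF750, OVOL1, ZNF217 and CTBP2) and 3 fell (HMG20B, GFI1 and HDAC1), which is 12.8% and 7.7%, against 8.60% and 6.44% of all genes. HMG20B averaged 9.41 ± 0.05 in 552A cells and 9.73 ± 0.05 in DMSO cells (-0.33 ± 0.06, adjusted p = 4.9e-05), and GFI1 averaged 7.95 ± 0.20 in 552A cells and 8.26 ± 0.12 in DMSO cells (-0.31 ± 0.08, adjusted p = 0.0021). The GFI1 response was -0.56 at day 2 and -0.002 at day 7. RCOR1 (0.00, adjusted p = 0.99) and GFI1B (-0.06, adjusted p = 0.67) were not called. REST, the repressor of neuronal genes outside the nervous system, depended on the probe set. The brightest one, used in the gene fit, gave 8.73 ± 0.13 in 552A cells and 8.67 ± 0.17 in DMSO cells (0.07, adjusted p = 0.75). A second one read 7.41 and 7.50 at day 2, 7.77 and 7.80 at day 4 and 8.12 and 8.13 at day 7 in 552A cells, against 5.58 and 5.79, 5.67 and 5.93, and 5.87 and 6.03 in DMSO cells. It was singled out after its values were seen, and its arms did not overlap (1.98 ± 0.11, adjusted p = 4.5e-20 in a fit over all probe sets).

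NCI-H510 was compared with the mean response of the other 5 time course lines in the same fit, and 743 genes responded higher (4.84% of genes tested) and 706 lower (4.60%) in NCI-H510, 9.44% in all. SCARA5, a scavenger receptor that takes up ferritin, rose by 2.37 ± 0.07 in NCI-H510, and the responses of the 5 other lines lay between -0.08 and 0.07 (difference 2.36, adjusted p = 1.8e-30). NOS1 rose in NCI-H510 with none of the others called, with 2.07 ± 0.11 in NCI-H510 and -0.06 to 0.07 in the other lines. ISL1 rose by 2.20 in NCI-H510 and by 0.45 in COLO668, and fell by 0.29 in SHP-77 and by 0.67 in NCI-H146. MALL rose by 2.07 in NCI-H510 and fell by 1.06 in NCI-H526. On the falling side, ALDH1A1 had -2.01 in NCI-H510 and -0.28 to 0.10 elsewhere, ADCYAP1 -2.46 in NCI-H510 and -0.62 to -0.05 elsewhere, and KCTD12 -2.14 in NCI-H510, with a rise of 0.97 in NCI-H526. SCN2A had -2.13 in NCI-H510, -0.77 and -0.70 in SHP-77 and NCI-H146, and rose by 0.64 in COLO668.

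Other strong responses were shared with 1 or more lines. LRRN4 rose by 2.07 in COLO668, 1.53 in NCI-H146 and 0.77 in SHP-77, and was not called in NCI-H526 (-0.03) or NCI-H446 (-0.16). ADGRG6 rose by 2.03 in COLO668 and 0.58 in SHP-77. TNFRSF10B rose by 1.63 in COLO668, 1.28 in NCI-H146 and 0.72 in NCI-H526. VIM rose by 2.08 in NCI-H146, 1.33 in NCI-H446, 0.60 in COLO668 and 0.27 in NCI-H526, and ZEB1 by 3.14 in NCI-H526, above its 2.13 in NCI-H510, and by 1.25 in COLO668. The late gene GJA1 was called in NCI-H146 alone among the others (1.35, adjusted p = 2.3e-16).

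Of the 1320 genes that rose in NCI-H510, 632 rose in COLO668 (47.9%), 444 in NCI-H526 (33.6%), 242 in NCI-H146 (18.3%), 176 in NCI-H446 (13.3%) and 163 in SHP-77 (12.3%). In the same order of lines, 12.3%, 10.7%, 4.27%, 4.31% and 3.87% of all genes tested rose, and the shared genes made up 33.4%, 27.1%, 36.9%, 26.6% and 27.4% of the rises of these lines. Of the 988 genes that fell in NCI-H510, 327 (33.1%), 240 (24.3%), 91 (9.2%), 40 (4.0%) and 131 (13.3%) fell in these lines. The shares of all genes that fell there were 8.81%, 10.5%, 2.12%, 1.28% and 4.27%, and the shared genes made up 24.2%, 14.9%, 27.9%, 20.3% and 20% of their falls. 396 of the rises and 431 of the falls were called the same way in 0 of the other lines, at the limma threshold used. 5 rises (PDGFC, RIPK2, IGSF3, APOLD1 and CYFIP1) and 1 fall (IL13RA1) were called the same way in all 5, as seen after their values were known. PDGFC, a ligand of PDGF receptors, averaged 10.05 ± 0.15 in 552A cells and 9.19 ± 0.33 in DMSO cells of NCI-H510 (0.86 ± 0.11), and its responses elsewhere ran from 0.37 to 1.32. These counts rest on 1 spread per gene, fitted over all lines and not for each line. The lines differed in it: the median SD within groups was 0.08 in NCI-H510, the lowest of the 6, and 0.17 in NCI-H446, the highest.

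**Figure D5:**
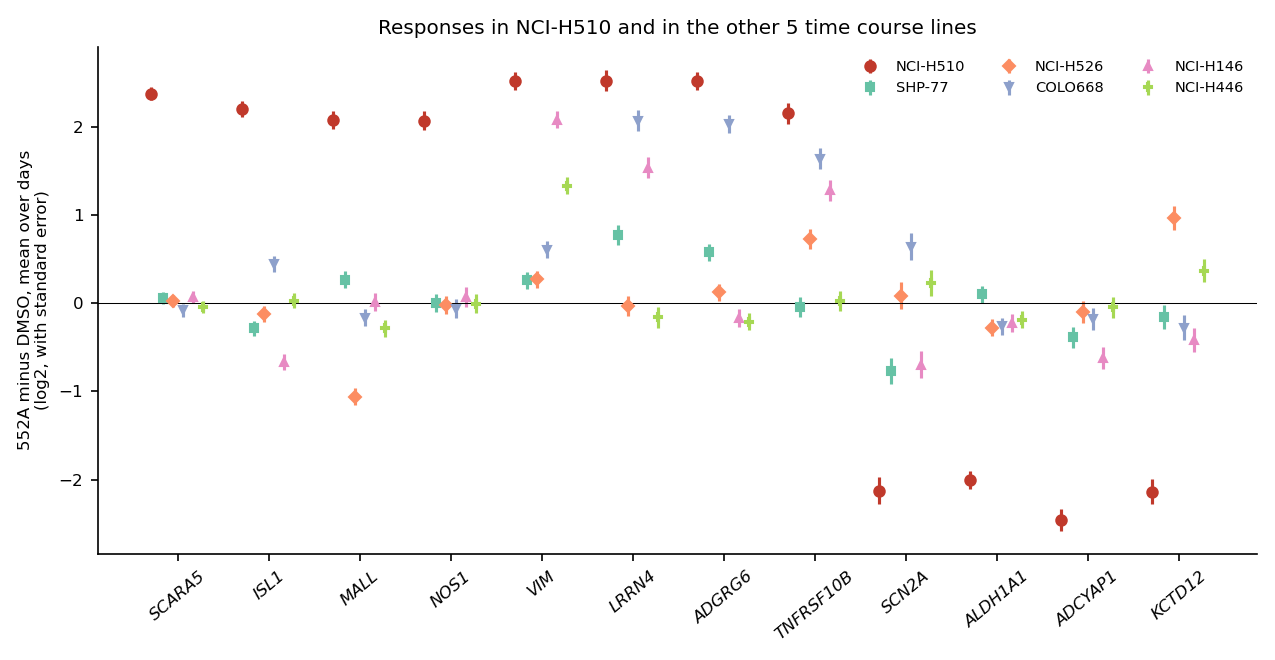
Mean response over days (552A minus DMSO, log2, with the standard error of the fit) of 12 genes in NCI-H510 and in the other 5 time course lines. SCARA5, NOS1, ALDH1A1 and ADCYAP1 stand apart in NCI-H510, while LRRN4, ADGRG6 and TNFRSF10B are also high in COLO668.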

How the data were processed

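Gene expression was measured in 88 arrays, 12 of them from NCI-H510 cells. The authors deposited 1 log2 signal per probe set and array. What program, background correction and scaling the authors used for these log2 values is not given in the sources used here. Per the labels' protocols, biotin-labelled total RNA was hybridised to Affymetrix HG-U133 Plus 2.0 arrays.

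Of 54675 probe sets, 41091 had 1 gene symbol, 1801 several, 11721 none and 62 were controls. A probe set was kept when the mean of at least 1 of the 42 groups of line, treatment and day exceeded the median of all values (7.41). The brightest probe set stood for a gene, with cross-hybridising sets set aside where another existed, which left 15352 of 19775 genes. limma 3.58.1 in R 4.3.3 fitted a mean for each group over all 88 arrays (46 residual degrees of freedom), with two-sided moderated tests and Benjamini-Hochberg adjustment over the genes tested, and a gene was called at an adjusted p below 0.05. "Mean response" weighs the 3 days equally, and ± marks the SD of arrays after a level and the standard error of the fit after a difference. The fit was first tested on simulated data. Figures and lists used Python 3.11.15, and promoter windows on chromosome 8 were not used.

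Genes named were the 12 largest mean responses in each direction, the 6 largest at day 2, the 6 largest changes between days 2 and 7, the 4 largest differences from other lines, the 4 largest of each gene list, and a fixed set of regulators. Genes outside this rule, such as the called exceptions within lists, were named after their values were seen. The members and lists were chosen with earlier results of these data known. The main fit did not treat arrays of equal replicate number as pairs. Deviations of equal numbers correlated at 0.15, -0.05 and 0.26 at days 2, 4 and 7, which does not settle whether they were paired. Alternatives tried were quantile normalization, other filters, the mean of all probe sets, NCI-H510's arrays alone, leaving out arrays or lines, an intensity trend, array weights, a replicate block and, chosen after seeing the data, the ACTB 3′ minus 5′ signal as a covariate.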

Additional observations from a re-analysis of the deposited data

Results flagged for a closer look

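Responses that differed between day 7 and day 2 in NCI-H510 by the interaction test were singled out. The response was higher at day 7 for GJA1 by 2.24, CYP1A1 by 1.80, COL21A1 by 1.50, ISL1 by 1.27, GALNT16 by 1.22 and PCDH7 by 1.20 log2 units. PCDH7 was dim in both arms in the mean over days, but its 552A arrays at day 7 read 6.81 and 6.63, above the dim limit. The day 7 minus day 2 difference was -1.53 for SST, -1.43 for CADPS, -1.35 for MFAP3L, -1.34 for NELL1, -1.25 for ST18 and -1.22 for NSG2. For MFAP3L the DMSO arrays moved more between the days than the 552A arrays.

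Responses that differed between NCI-H510 and the mean of the other 5 time course lines were singled out in the same way. The difference was 2.36 for SCARA5, 2.32 for ISL1, 2.32 for MALL and 2.07 for NOS1. It was -2.23 for KCTD12, -2.19 for ADCYAP1, -2.02 for SCN2A and -1.83 for ALDH1A1.

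Probe sets with no gene symbol took no part in the gene tests and also responded: of 5251 tested among 36232 probe sets, 217 rose and 166 fell. Both are smaller shares than the 8.60% and 6.44% of genes that rose and fell in the gene fit. That fit took the brightest probe set of each gene and adjusted over fewer tests, so the shares are not like for like. The largest rises were those of 1564358_at, at 9.55 in 552A cells and 7.92 in DMSO cells (1.63), and 243339_at, at 7.17 in 552A cells and 5.57 in DMSO cells (1.60). The largest falls were those of 231432_at, at 8.02 in 552A cells and 10.41 in DMSO cells (-2.39), and 222325_at, at 5.03 in 552A cells and 6.68 in DMSO cells (-1.66).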

How the results depend on the processing

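Over 176 results for named genes and 27 alternatives, 3703 of 3869 comparisons kept direction and side of the threshold, 129 kept direction but lost the call, 35 gained one and 2 reversed. Both reversals were of SCNN1G without the filter on dim probe sets, where its dim probe set gave -0.054 for the mean over days and -0.090 at day 2. Fitting the 12 NCI-H510 arrays alone called 3811 genes for the mean over days, 1040 at day 2, 1461 at day 4 and 1774 at day 7. Without the 6 arrays in doubt, all of other lines, the counts were 3502, 918, 1309 and 1650, with 39 for the change between days 2 and 7 and 2347 for the difference from the other lines. Array weights gave 4316, 1147, 2882, 1979, 93 and 2793 for the same 6 comparisons. Adding the replicate number as a block gave 2577, 650, 876, 1171, 31 and 1653. Leaving out 1 NCI-H510 array gave 1893 to 2155 for the mean, 285 to 525 at day 2, 404 to 722 at day 4, 542 to 961 at day 7, 7 to 36 for the change and 1178 to 1354 for the difference. Fewer arrays remain in those fits, and the cause of the other shifts was not tested. Of 123 named mean calls, 111 held in all 12 of these fits. Dim genes give compressed differences, and responses of less than about the spread between arrays were not detectable with 2 arrays a group.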

Other observations

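Further gene lists are given beside the shares of all genes tested in NCI-H510, of which 8.60% rose and 6.44% fell. Among 21 intermediate filament genes 4 rose and 3 fell (19.0% and 14.3%): beside VIM, KRT80, an epithelial keratin, averaged 9.32 ± 0.10 in 552A cells and 8.48 ± 0.13 in DMSO cells (SD, n = 6 each), while NEFH, the heavy neurofilament chain, averaged 8.55 ± 0.23 in 552A cells and 9.16 ± 0.21 in DMSO cells. In the tuft cell list 5 of 30 rose and 4 fell (16.7% and 13.3%). HEPACAM2 fell by 1.45 ± 0.12 and SOX9 rose by 0.53 ± 0.15. Of 31 genes of myeloid and haematopoietic differentiation 4 rose and 3 fell (12.9% and 9.7%), with VCAN, the matrix proteoglycan versican, lower by a response of -0.96 ± 0.11.

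Among 43 lysosome genes 6 rose and 4 fell (14% and 9.3%). TFEB, the transcription factor that drives lysosome genes, averaged 7.91 ± 0.14 in 552A cells and 8.74 ± 0.09 in DMSO cells (-0.83 ± 0.09), whereas CTSH, a lysosomal protease, averaged 10.30 ± 0.10 in 552A cells and 9.65 ± 0.11 in DMSO cells (0.65 ± 0.05). Of 32 genes of DNA methylation and polycomb proteins 2 rose and 3 fell (6.2% and 9.4%), and DNMT3B, a de novo DNA methyltransferase, averaged 9.84 ± 0.09 in 552A cells and 10.45 ± 0.13 in DMSO cells (-0.61 ± 0.06). Of 41 genes of amino acid and unfolded protein stress 4 rose and 2 fell (9.8% and 4.9%), near the shares of all genes. Of 33 genes of cholesterol and fatty acid synthesis limma called 0 up and 3 down (SCD, SQLE and HSD17B7, each under 0.3 in size). At an unadjusted limma p below 0.05, 1 was higher and 3 were lower, beside 2018 and 1704 of all 15352 genes tested.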
